A study of Homo sapiens with 15 samples.

Results

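Interferon-stimulated genes and the sensors of foreign nucleic acid that work with them were followed over 5 established human neuroblastoma cell lines. The set is a list of 47 named genes, and 46 of them had a probe set that named the gene alone, out of 18244 genes measured in all. STAT2 is the listed gene not analysed here. Where a gene had several, its brightest probe set by mean intensity stood for it. The lines were SK-N-AS, SH-SY5Y, KELLY, NGP and BE(2)-C, with 3 arrays of total RNA from each, grown in serum-supplemented medium and labelled with no treatment, so every line was measured as it grows in culture. From general knowledge of these lines, NGP, BE(2)-C and KELLY carry amplified MYCN and SK-N-AS and SH-SY5Y do not. SH-SY5Y and BE(2)-C are clonal sublines, and each line stems from 1 tumour, so a difference between lines is a difference between 5 cultures and not between classes of tumour. The labels only number the arrays of a line and name no separate cultures, and p-values measure only the spread between these arrays, which may be technical. In bulk RNA, a low value in all cells and expression in fewer cells cannot be told apart.

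Interferons are secreted proteins that bind surface receptors. The receptors activate the kinases JAK1 and TYK2, and a complex that contains IRF9 then binds an interferon-stimulated response element (ISRE) in the promoters of target genes. The products of these genes block virus entry, bind or degrade foreign RNA, attach the ubiquitin-like protein ISG15 to other proteins, and raise the amount of the sensors themselves. Many of the genes keep a basal level in unstimulated cells, and tumour lines are known to differ in that level.

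The promoters of the genes show what the set shares in sequence. Promoter sequences came from RefSeq (build GRCh38.p14), as windows of 300 bases from 250 before to 50 after a gene's start, and 36 of the 47 listed genes had at least 1 window. The core of the ISRE was searched as GAAANNGAAA and the gamma-activated site (GAS), an element of the response to interferon gamma, as TTCNNNGAA, both on either strand. Of the 35 genes that had a window and a probe set, 23 (65.7%) held the ISRE core, against 4.38% of 27305 genes with a window, or 3.57% of 35116 windows of the same length. The GAS letters were in 11 of the 35 (31.4%), against 9.38% of all genes with a window and 7.66% of all windows. Among the genes described below as higher in SK-N-AS than in every other line the ISRE core was in 18 of 25, and among the other measured members in 5 of 10. Matches of the ISRE core and the GAS overlapped in IFITM1, BST2, IFI27 and 1 window of MX1. A match is a description of letters, not evidence of binding. The stretches below are those of 5 genes with some of the largest differences between lines and of HERC5 and OAS3, which were high in more than 1 line. Each is printed 5′ to 3′ along the gene and ends before the gene's start, and the capitals mark the ISRE core or its reverse complement.
IFITM3 (chr11:320861-320937, minus strand): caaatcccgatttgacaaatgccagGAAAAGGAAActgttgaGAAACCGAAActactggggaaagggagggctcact
BST2 (chr19:17405720-17405785, minus strand): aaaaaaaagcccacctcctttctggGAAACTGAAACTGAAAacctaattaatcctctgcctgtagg
GBP1 (chr1:89065301-89065360, minus strand): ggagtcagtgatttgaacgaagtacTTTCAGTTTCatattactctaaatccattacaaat
IFI44 (chr1:78649746-78649788, plus strand): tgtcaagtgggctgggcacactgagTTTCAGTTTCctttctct
PARP14 (chr3:122680785-122680838, plus strand): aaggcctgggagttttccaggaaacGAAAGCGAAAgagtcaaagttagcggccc
HERC5 (chr4:88456969-88457079, plus strand): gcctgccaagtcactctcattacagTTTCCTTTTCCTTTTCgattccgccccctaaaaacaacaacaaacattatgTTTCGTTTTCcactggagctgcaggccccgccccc
OAS3 (chr12:112938306-112938473, plus strand): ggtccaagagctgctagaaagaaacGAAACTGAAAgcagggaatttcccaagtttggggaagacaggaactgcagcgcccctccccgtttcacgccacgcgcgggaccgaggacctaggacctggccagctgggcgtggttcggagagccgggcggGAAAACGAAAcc
BST2 carried overlapping copies of the core that share a GAAA block, with the first copy 130 bases before the start, and IFITM3 carried separate copies 52 and 35 bases before it. PARP9 and DTX3L, which lie head to head, held the same 10 bases at chr3:122564332-122564341, 41 bases before one of the starts of PARP9 and 6 bases before that of DTX3L. Among the measured members, IFI16, UBE2L6, HERC6, ADAR, SAMHD1, XAF1 and TRIM25 had windows with neither set of letters.

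The values are the authors' deposited MAS5 intensities, and their level differed between arrays. The median intensity of an array lay between 121 and 126 in SK-N-AS, between 102 and 103 in BE(2)-C, between 73.4 and 78.7 in NGP, between 66.7 and 69.3 in KELLY and between 51.9 and 57.2 in SH-SY5Y. The 100 ERCC spike-in probe sets gave nearly the same level on all arrays, with a median of 8.85 to 9.12 on the log2 scale over the 33 that were brighter than the median of all values. Most genes are thus brighter in SK-N-AS, and each count below is read against the share of all genes called the same way. Each result was also computed on centred arrays. Each array was centred on the median of the 12776 genes whose brightest line mean reached the median of all values, not on the array median given above. This lowers the difference between SK-N-AS and the mean of the other 4 lines by 0.88 on the log2 scale. Arrays of 1 line correlated at 0.991 or more with each other and at no more than 0.940 with those of another line, over all probe sets. A gene was called between lines when the Benjamini-Hochberg adjusted p from limma was under 0.05, the absolute difference in log2(intensity + 1) was at least 1 and the brighter line reached the median of all values, an intensity of 80.6.

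The interferon-stimulated and sensing genes were brightest in SK-N-AS. Of the 46 members, 31 (67.4%) were called higher in SK-N-AS than in each of the other 4 lines, against 9.02% of all genes, and 0 were called lower than in each, against 1.36% of all genes. In the single comparisons, SK-N-AS was called higher than SH-SY5Y in 39 members (44.6% of all genes), than NGP in 36 (25.5%), than BE(2)-C in 31 (11.2%) and than KELLY in 36 (34.3%). On the probe sets used, no member was called lower in SK-N-AS than in any of these lines. Of all genes, 2.86% (SH-SY5Y), 5.19% (NGP), 6.85% (BE(2)-C) and 3.59% (KELLY) were. The median difference, SK-N-AS minus the mean of the other 4 lines, was 3.06 on the log2 scale over the 46 members and 0.54 over all genes. On centred arrays the medians were 2.18 and -0.34, and 24 members were called higher in SK-N-AS than in every other line, against 4.02% of all genes. Of all genes called in a comparison of SK-N-AS with another line, 86.2% were higher in SK-N-AS on the deposited scale and 47.2% on centred arrays, while of the members' calls 100% of 142 and 99.1% of 116 were. The 1 call in the other direction on centred arrays was that of XAF1 against NGP. HERC5, USP18, IFIT1, OASL, ISG20, IFI6 and TRIM25 were the 7 genes no longer called higher than in every other line on that scale. Without probe sets marked _s_at or _x_at, which can bind related transcripts, 35 members had a probe set. Of these, 18 were called higher than in every other line, against 8.82% of the 16772 genes still measured. Among members still measured only TRIM25 and DTX3L lost the call, and the others lost had no such probe set.

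**Figure D1:**
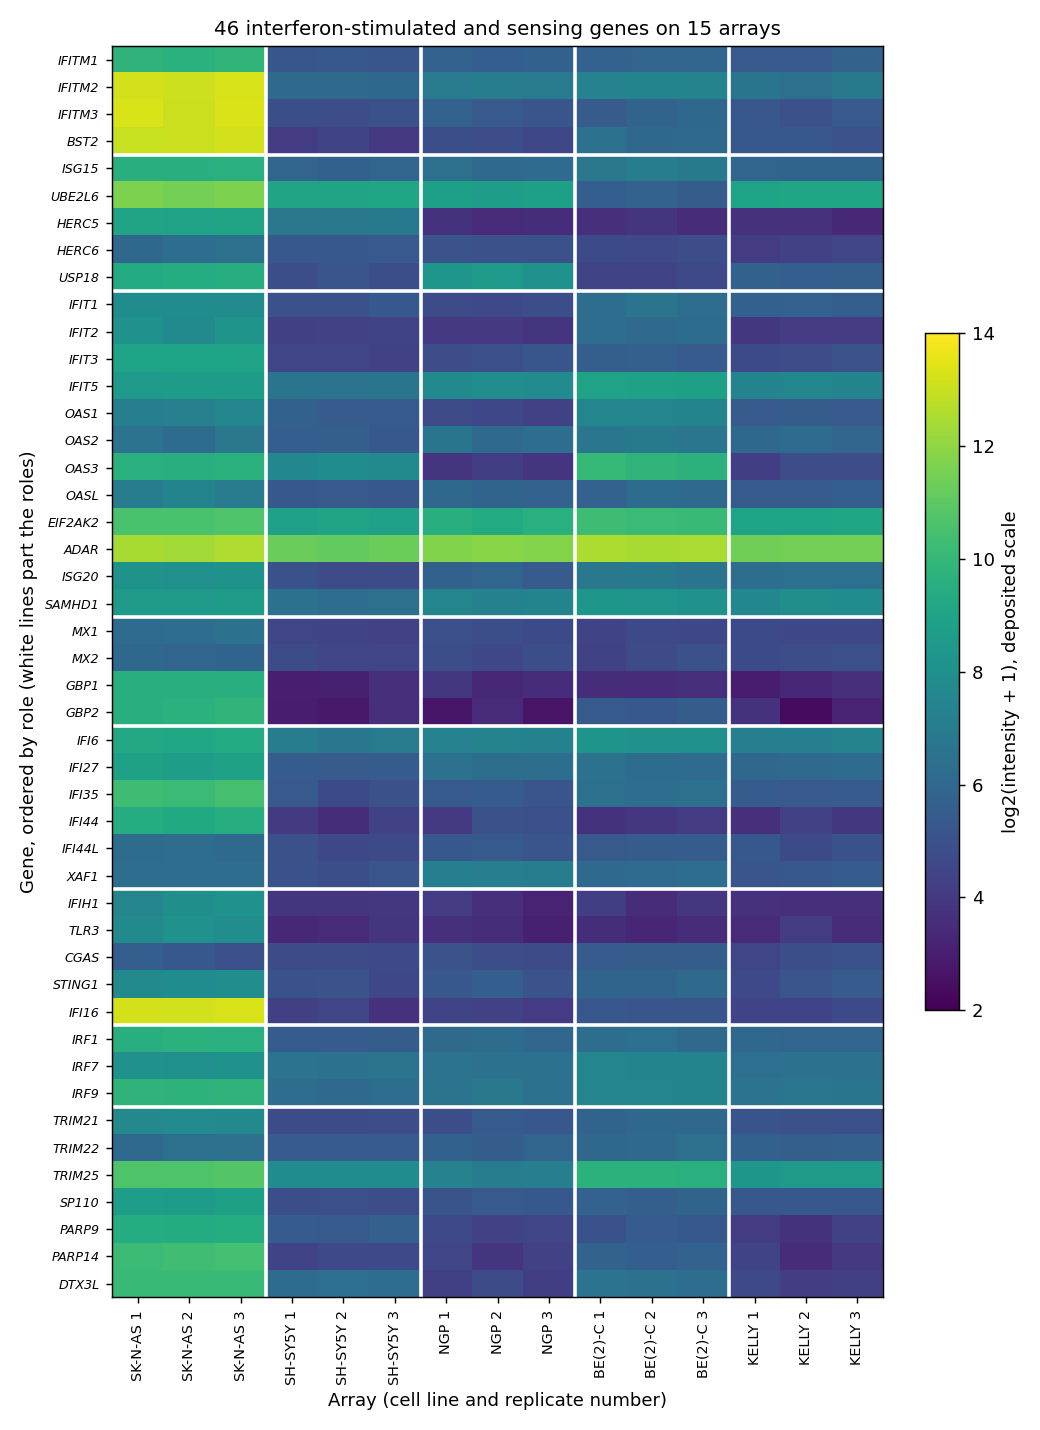
Values of the 46 measured members on the 15 arrays, in log2(intensity + 1) on the deposited scale, with arrays in columns by line and genes in rows by role. The 3 SK-N-AS columns are the brightest for most genes, with 31 members called higher there than in each other line, while OAS3, IFIT5, UBE2L6, USP18 and XAF1 show other patterns.

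**Figure D2:**
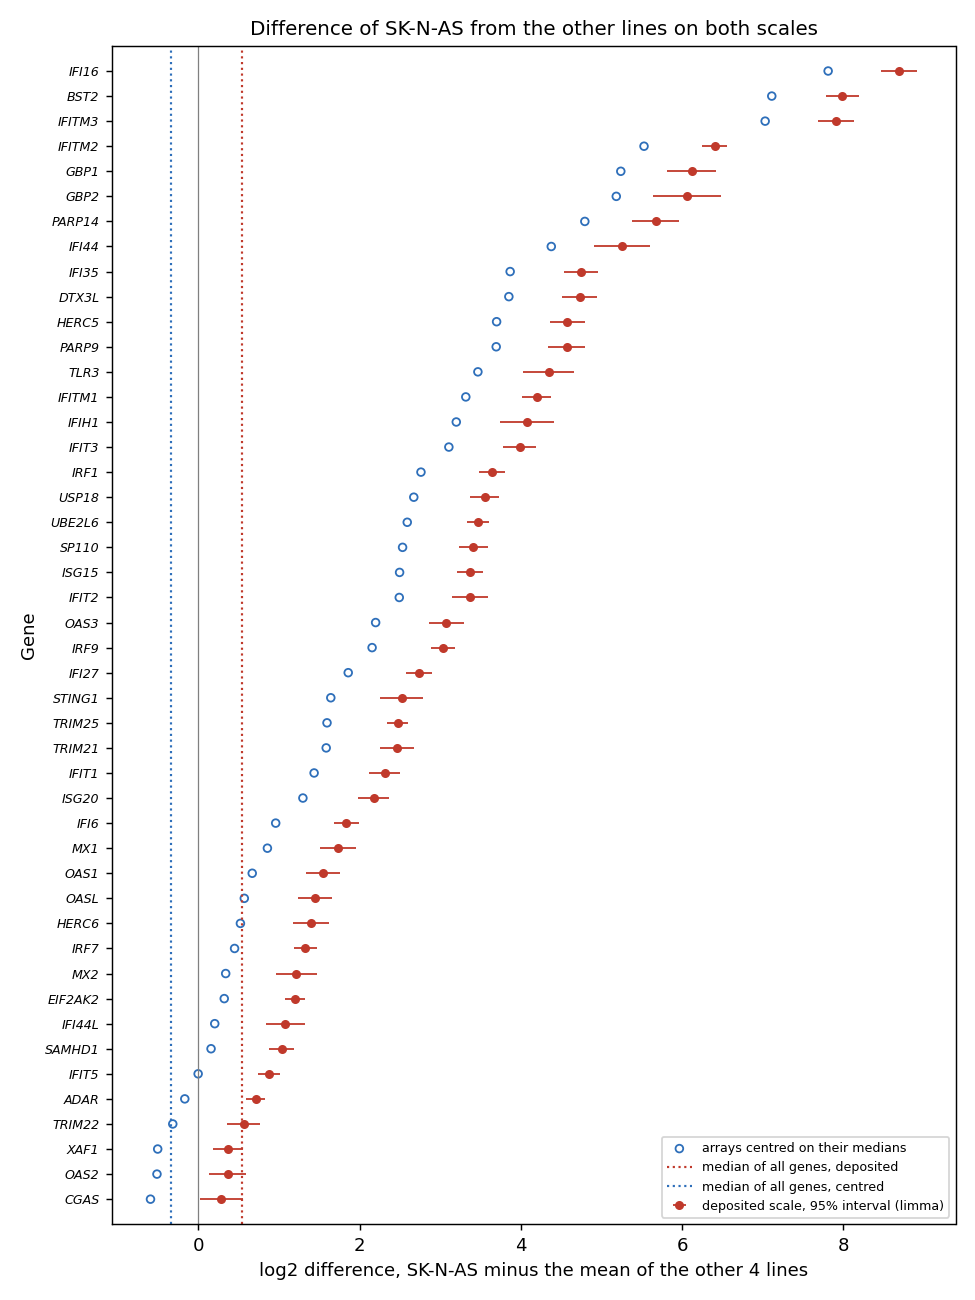
Difference of SK-N-AS from the mean of the other 4 lines for each of the 46 members, with its 95% interval from limma on the deposited scale (filled) and the value on centred arrays (open); dotted lines are the medians of all genes. The members run from 0.29 (CGAS) to 8.69 (IFI16) on the deposited scale, and 40 of 46 stay above 0 on centred arrays.

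The proteins that restrict viruses at membranes showed some of the widest gaps. All 4 of them were called higher in SK-N-AS than in every other line on both scales. IFITM1, IFITM2 and IFITM3 sit in membranes and hinder the fusion of virus and cell, and BST2 (tetherin) holds budding viruses at the cell surface. IFITM3 read 10066, 8554 and 10167 in SK-N-AS, 36.7, 30.6 and 40 in KELLY, 28.2, 27.8 and 30.8 in SH-SY5Y, 42.3, 54.8 and 62.8 in BE(2)-C and 53.1, 39.97 and 34.99 in NGP (intensity per array). Every SK-N-AS array was far above all 12 others, and the difference of SK-N-AS from the mean of the others was 7.91 (SE 0.11) on the log2 scale (limma, highest adjusted p over the 4 comparisons 2.21e-25). BST2 read 8272, 8413 and 9382 in SK-N-AS, 37.5, 37.2 and 33.1 in KELLY, 16.4, 21.4 and 14.9 in SH-SY5Y, 88.5, 64.5 and 70.6 in BE(2)-C and 28.2, 27.1 and 22.5 in NGP. The other lines kept an order within the low range, with BE(2)-C the brightest and SH-SY5Y the dimmest, and the differences of SK-N-AS from single lines ran from 6.86 to 8.88. IFITM2 read 9333, 8655 and 9922 in SK-N-AS, 100.5, 84.3 and 116 in KELLY, 69.7, 69.3 and 64.6 in SH-SY5Y, 159, 172 and 166 in BE(2)-C and 122, 131 and 120.5 in NGP. It differed from the rest of the family in reaching the median of all values in NGP, BE(2)-C and KELLY as well, and its difference was 6.41 (SE 0.076). IFITM1 read 879, 818 and 917 in SK-N-AS, 40.2, 39.7 and 54.7 in KELLY, 35.8, 37.5 and 36.2 in SH-SY5Y, 53.1, 60.02 and 58.7 in BE(2)-C and 53.3, 47.3 and 52.1 in NGP. Its arrays outside SK-N-AS were all below the median of all values, and its difference was 4.20 (SE 0.09). The 3 IFITM genes are neighbours on chromosome 11 with closely related sequences, the probe sets used for them are all of the _x_at kind, and how far each reads the others' transcripts was not tested. BST2 had 4 probe sets, of which 3 read 6930 to 8689 in SK-N-AS and the remaining one, with a mean of 15.1 there, was dim in all lines.

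Among the sensors, the gap was widest for IFI16, which binds DNA in the nucleus and cytoplasm. It read 9646, 9243 and 10004 in SK-N-AS, 20.3, 20.04 and 24.5 in KELLY, 18.3, 21.4 and 12.3 in SH-SY5Y, 37.8, 36.1 and 35.9 in BE(2)-C and 20.8, 18.8 and 16.4 in NGP. SK-N-AS did not overlap with the rest, the other 4 lines stayed below the median of all values, and the difference was 8.69 (SE 0.11) (limma, highest adjusted p 5.93e-26). All 3 probe sets of IFI16 gave this pattern, with means of 5612 to 9631 in SK-N-AS and 36.6 at most elsewhere, and all are of the _s_at kind. TLR3, which detects double-stranded RNA in endosomes, read 211, 264 and 233 in SK-N-AS, 10.2, 15.99 and 10.6 in KELLY, 9.36, 10.1 and 12.8 in SH-SY5Y, 11.03, 8.65 and 10.4 in BE(2)-C and 11.8, 10.9 and 7.37 in NGP. IFIH1 (MDA5), which detects long double-stranded RNA in the cytoplasm, read 174, 251 and 274 in SK-N-AS, 12.3, 11.6 and 11.2 in KELLY, 13.2, 13.3 and 13.9 in SH-SY5Y, 17.4, 10.7 and 13.7 in BE(2)-C and 16.4, 11.8 and 8.27 in NGP. Both were called only through SK-N-AS, with differences of 4.34 (SE 0.15) and 4.08 (SE 0.16), and the 12 arrays of the other lines held them at 17.4 or less. STING1, the adaptor that passes on the signal of the DNA sensor CGAS, averaged 227 ± 13.8 in SK-N-AS, 33.6 ± 8.87 in KELLY, 29.2 ± 4.94 in SH-SY5Y, 61.6 ± 7.37 in BE(2)-C and 38.6 ± 7.43 in NGP (SD, n = 3 each), a difference of 2.52 (SE 0.13). CGAS departed from the group. It read 46.5, 38.7 and 29.2 in SK-N-AS, 21.5, 28.1 and 31.9 in KELLY, 26.3, 25.6 and 24.5 in SH-SY5Y, 43.2, 45.03 and 45.5 in BE(2)-C and 33.03, 27.1 and 26.04 in NGP, stayed below the median of all values in every line, and differed from the mean of the others by 0.29 (95% interval 0.02 to 0.55, adjusted p = 0.0442), a value that changed sign to -0.59 on centred arrays.

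The GTPases split by family. The guanylate-binding proteins GBP1 and GBP2, which coat microbes and their vacuoles, were called higher in SK-N-AS than in every other line on both scales. GBP1 read 752, 733 and 761 in SK-N-AS, 6.64, 9.40 and 11.1 in KELLY, 7.06, 7.19 and 11.1 in SH-SY5Y, 11.03, 10.6 and 11.47 in BE(2)-C and 14.4, 9.50 and 10.5 in NGP. GBP2 read 756, 812 and 922 in SK-N-AS, 12.3, 4.03 and 7.87 in KELLY, 6.56, 6.16 and 11.3 in SH-SY5Y, 41.1, 38.7 and 45.1 in BE(2)-C and 5.34, 10.1 and 5.12 in NGP. The 4 other lines were near the lowest values of the arrays, except that GBP2 stood between 38.7 and 45.1 in BE(2)-C, and the differences were 6.12 (SE 0.15) for GBP1 and 6.06 (SE 0.20) for GBP2. MX1, which blocks the polymerases of RNA viruses, and MX2, which blocks the nuclear entry of HIV, were not called in any comparison because no line reached the median of all values. MX1 read 73.4, 77.3 and 91.1 in SK-N-AS, 24.9, 22.9 and 22.99 in KELLY, 21.6, 20.7 and 18.7 in SH-SY5Y, 21.1, 24.4 and 23.2 in BE(2)-C and 29.9, 28.1 and 24.6 in NGP. Its SK-N-AS arrays were above all others, with single differences of 1.51 to 1.93, but the line mean in log2 lay just under the threshold. MX2 averaged 60.5 ± 3.54 in SK-N-AS, 27.3 ± 2.51 in KELLY, 23.3 ± 2.39 in SH-SY5Y, 25.6 ± 5.28 in BE(2)-C and 26.3 ± 2.85 in NGP (SD, n = 3 each). On centred arrays SK-N-AS differed from KELLY by -0.0037, from SH-SY5Y by -0.00028, from BE(2)-C by 1.02 and from NGP by 0.35. The other probe set of MX2 averaged 22.8 in SK-N-AS and 21.5 to 27.1 elsewhere.

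The genes that bind or degrade RNA were divided, with 5 of 12 called higher in SK-N-AS than in every other line and 2 of 12 on centred arrays. The IFIT proteins bind foreign RNA ends, and IFIT1, IFIT2 and IFIT3 were among the 5, with differences of 2.31 (SE 0.093), 3.37 (SE 0.11) and 3.98 (SE 0.098). IFIT1, IFIT2 and IFIT3 averaged 224, 262 and 497 in SK-N-AS, against at most 84.8, 74.9 and 47.4 elsewhere, each in BE(2)-C. IFIT5, their neighbour on chromosome 10, departed most from the family and read 346, 397 and 382 in SK-N-AS, 170.1, 183 and 169 in KELLY, 95.99, 92.7 and 100.2 in SH-SY5Y, 487, 472 and 447 in BE(2)-C and 206, 233 and 218 in NGP. It was above the median of all values in every line and brightest in BE(2)-C, where the SK-N-AS value was lower by a log2 difference of -0.32 (SE 0.085, adjusted p = 0.00194).

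The OAS genes make oligoadenylates that activate the ribonuclease RNase L, and their pattern followed both SK-N-AS and BE(2)-C. OAS3 read 782, 762 and 823 in SK-N-AS, 18.01, 27.4 and 27.1 in KELLY, 191, 225 and 216 in SH-SY5Y, 1044, 920.4 and 835 in BE(2)-C and 13.5, 17.9 and 13.3 in NGP. The BE(2)-C arrays were highest with the SK-N-AS arrays just below them, SH-SY5Y lay between, and NGP and KELLY were near the dimmest values of the arrays. The log2 difference of SK-N-AS from NGP was 5.65 (SE 0.13, adjusted p = 2.15e-23), and that from BE(2)-C was -0.24 (95% interval -0.51 to 0.03, adjusted p = 0.133). OAS1 read 142, 149 and 179.5 in SK-N-AS, 42.3, 45.9 and 39.9 in KELLY, 51.96, 43.04 and 41.3 in SH-SY5Y, 179, 182 and 167 in BE(2)-C and 25.8, 23.5 and 18.7 in NGP. SK-N-AS and BE(2)-C were again high and here overlapped, with a difference between them of -0.17 (95% interval -0.43 to 0.09, adjusted p = 0.261). On centred arrays SK-N-AS minus BE(2)-C was -0.38 for OAS1 (limma, adjusted p = 0.00728) and -0.45 for OAS3 (adjusted p = 0.00481). The calls of SK-N-AS over SH-SY5Y were lost there, at 0.42 for OAS1 and 0.56 for OAS3, as was that of OAS1 over KELLY, at 0.72. OAS2 read 95.03, 74.5 and 109 in SK-N-AS, 62.9, 72.7 and 59.97 in KELLY, 47.6, 48.6 and 39.2 in SH-SY5Y, 102, 113 and 102 in BE(2)-C and 100.2, 67.95 and 79.5 in NGP. The SK-N-AS arrays overlapped with those of NGP and of BE(2)-C, and OAS2 was called only in the comparisons of SH-SY5Y with SK-N-AS and with BE(2)-C. Both calls of OAS2 were lost on centred arrays, where SK-N-AS minus SH-SY5Y turned from 1.01 to -0.33 and SH-SY5Y minus BE(2)-C went from -1.22 to -0.08. The other 4 probe sets of OAS2 were below the median of all values in every line. OAS1, OAS2 and OAS3 are neighbours on chromosome 12, and 0 of the 3 were called higher in SK-N-AS than in every other line. OASL, a relative without synthase activity that lies elsewhere, averaged 140.2 ± 26.6 in SK-N-AS, 43.2 ± 3.22 in KELLY, 38.5 ± 1.66 in SH-SY5Y, 66.01 ± 10.5 in BE(2)-C and 58.2 ± 4.46 in NGP (SD, n = 3 each) and was called higher in SK-N-AS than in every other line on the deposited scale, with a smallest difference of 1.07. The call of OASL was lost with a pseudocount of 16, without SK-N-AS replicate 2 and without BE(2)-C replicate 1, as well as on centred arrays.

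Of the remaining RNA-directed genes, ADAR and EIF2AK2 were bright in all lines. ADAR, which edits adenosine to inosine in double-stranded RNA, averaged 5596 ± 475 in SK-N-AS, 2846 ± 111 in KELLY, 2392 ± 151 in SH-SY5Y, 5701 ± 159 in BE(2)-C and 3497 ± 173 in NGP (SD, n = 3 each). Its difference between SK-N-AS and BE(2)-C was -0.03 (95% interval -0.18 to 0.12, adjusted p = 0.76), and -0.24 on centred arrays (limma, adjusted p = 0.000184). The other probe sets of ADAR were all brightest in SK-N-AS on the deposited scale. The brightest of them averaged 1871 there and 1462 in BE(2)-C. EIF2AK2 (PKR), which halts translation on binding double-stranded RNA, averaged 1552 ± 83.1 in SK-N-AS, 509.6 ± 13.1 in KELLY, 483 ± 20.6 in SH-SY5Y, 1165 ± 56.2 in BE(2)-C and 724 ± 65.4 in NGP. ISG20, an exonuclease, averaged 274 ± 11.1 in SK-N-AS, 81.2 ± 0.968 in KELLY, 28.2 ± 3.18 in SH-SY5Y, 109 ± 9.07 in BE(2)-C and 51.5 ± 8.85 in NGP and was called higher in SK-N-AS than in every other line on the deposited scale. SAMHD1, which depletes the nucleotides that retroviruses need, averaged 359.5 ± 12.4 in SK-N-AS, 217 ± 23.8 in KELLY, 84.7 ± 4.91 in SH-SY5Y, 304 ± 23.4 in BE(2)-C and 168 ± 14.6 in NGP and was called in SK-N-AS against SH-SY5Y and NGP but not against BE(2)-C or KELLY. On centred arrays these calls of SAMHD1 were lost, with differences of 0.73 and 0.27, and SK-N-AS minus KELLY turned to -0.39 (adjusted p = 0.000322).

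The ISG15 system was high in SK-N-AS, but its enzymes were spread unevenly over the other lines. ISG15, the modifier itself, averaged 770.1 ± 4.05 in SK-N-AS, 57.9 ± 1.87 in KELLY, 56.97 ± 4.07 in SH-SY5Y, 117 ± 11.2 in BE(2)-C and 75.7 ± 8.11 in NGP (SD, n = 3 each), a difference of 3.37 (SE 0.079). UBE2L6, the enzyme that carries ISG15 to its ligases, read 3164, 2924 and 3183 in SK-N-AS, 501, 534 and 556 in KELLY, 515, 519 and 544 in SH-SY5Y, 47.3, 53.9 and 45.02 in BE(2)-C and 433, 425 and 449.8 in NGP. It was the only member called against every other line in BE(2)-C, where it was lower, against 0.329% of all genes. The SK-N-AS arrays were highest, SH-SY5Y, NGP and KELLY lay within 425 to 556, and BE(2)-C was lower than SH-SY5Y by a log2 difference, SH-SY5Y minus BE(2)-C, of 3.41 (SE 0.081, adjusted p = 1.22e-22). That call held on centred arrays, where the difference was 4.54; its only probe set is of the _s_at kind. HERC5, the main ligase for ISG15 in human cells, read 522, 487 and 506 in SK-N-AS, 12.2, 12.01 and 9.07 in KELLY, 107, 110.1 and 115 in SH-SY5Y, 11.6, 12.95 and 10.4 in BE(2)-C and 12.3, 9.78 and 10.8 in NGP. It was the only member called lower in each MYCN-amplified line than in both other lines, against 0.197% of all genes, and 0 members were called higher there, against 0.471% of all genes. SH-SY5Y had a clear level of HERC5 that was below that of SK-N-AS, with a log2 difference, SK-N-AS minus SH-SY5Y, of 2.18 (SE 0.13, adjusted p = 2.35e-14). HERC6, its neighbour on chromosome 4, departed from it and read 63.7, 78.7 and 84.3 in SK-N-AS, 16.8, 19.6 and 21.8 in KELLY, 36.9, 39 and 40.1 in SH-SY5Y, 24.99, 24.2 and 27.97 in BE(2)-C and 32.7, 30.1 and 30.5 in NGP. No line mean of HERC6 reached the median of all values. USP18, which removes ISG15 and dampens signalling at the interferon receptor, read 651, 686 and 703 in SK-N-AS, 52.4, 46.7 and 48.4 in KELLY, 28.8, 35.3 and 28.5 in SH-SY5Y, 21.3, 20.7 and 24 in BE(2)-C and 313, 346 and 278 in NGP. NGP held a level of USP18 below SK-N-AS but far above the remaining lines, and NGP minus BE(2)-C was 3.76 (SE 0.11, adjusted p = 5.31e-21) on the log2 scale.

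Of the IFI genes and XAF1, 4 of 6 were called higher in SK-N-AS than in every other line and 3 of 6 on centred arrays. IFI44 read 679, 630.1 and 703 in SK-N-AS, 11.4, 19.9 and 14.4 in KELLY, 15.5, 10.7 and 18.9 in SH-SY5Y, 12.7, 13.9 and 16.7 in BE(2)-C and 15.6, 30.4 and 29.02 in NGP. IFI35, a partner of the cytokine-inducible protein NMI, read 1228, 1144 and 1399 in SK-N-AS, 43.98, 39.9 and 41.97 in KELLY, 40.4, 24.7 and 30.6 in SH-SY5Y, 84.3, 79.3 and 86.1 in BE(2)-C and 41.8, 43.8 and 34.7 in NGP. The SK-N-AS arrays stood apart for both, with differences of 5.25 (SE 0.17) and 4.75 (SE 0.10), and BE(2)-C was the second brightest line for IFI35. IFI44L, the neighbour of IFI44 on chromosome 1, read 75.6, 76.2 and 67.4 in SK-N-AS, 38.2, 24.9 and 31.6 in KELLY, 30.7, 23.5 and 23.98 in SH-SY5Y, 40.1, 44.7 and 44.7 in BE(2)-C and 38.5, 41.8 and 34.5 in NGP and stayed below the median of all values in all 5 lines. This rests on the probe set used for IFI44L. Another one averaged 91.65 in SK-N-AS, above that median, and 25.66 to 33.65 elsewhere, and a further one was dim in all lines. IFI6 and IFI27, small membrane proteins, differed by 1.84 (SE 0.077) and 2.74 (SE 0.08), and IFI6 was above the median of all values in every line. XAF1, which counters the caspase inhibitor XIAP, had its highest values outside SK-N-AS. It read 78.6, 76.03 and 77.1 in SK-N-AS, 34.8, 37.6 and 43.4 in KELLY, 31.5, 28.6 and 35.1 in SH-SY5Y, 66.9, 72.9 and 80.9 in BE(2)-C and 142, 141 and 130.2 in NGP. NGP was above all other arrays and the only line to reach the median of all values, and SK-N-AS minus NGP was -0.83 (SE 0.11, adjusted p = 3.23e-07), short of the size needed for a call. All 7 probe sets of XAF1 were brightest in NGP, and on centred arrays it was called higher there than in every other line, against 1.39% of all genes.

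SK-N-AS was again the brightest line for the transcription factors. IRF9, the DNA-binding part of the complex that acts at the ISRE, averaged 880.5 ± 20.02 in SK-N-AS, 99.4 ± 3.61 in KELLY, 75.6 ± 6.14 in SH-SY5Y, 174 ± 6.79 in BE(2)-C and 99.6 ± 10.96 in NGP (SD, n = 3 each). IRF1, a factor induced by interferon gamma, averaged 777 ± 30.8 in SK-N-AS, 60.5 ± 3.35 in KELLY, 44.4 ± 1.55 in SH-SY5Y, 77.7 ± 6.47 in BE(2)-C and 68.7 ± 7.02 in NGP. Their differences were 3.03 (SE 0.074) and 3.64 (SE 0.079), and both were called against every line on both scales. IRF7, which amplifies interferon production, departed from them with 272, 259.7 and 281 in SK-N-AS, 83.7, 91.7 and 91.3 in KELLY, 95.4, 90.6 and 96.7 in SH-SY5Y, 182, 169 and 171 in BE(2)-C and 93.6, 88.6 and 89.6 in NGP. It was above the median of all values in every line, and SK-N-AS minus BE(2)-C was 0.63 (SE 0.088, adjusted p = 4.78e-07).

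The last group holds TRIM proteins, SP110 and the PARP9 neighbourhood, and 6 of 7 were called higher in SK-N-AS than in every other line, 5 of 7 on centred arrays. PARP14, an ADP-ribosyltransferase, read 1142, 1267 and 1368 in SK-N-AS, 20.5, 10.4 and 14.7 in KELLY, 20.2, 23.9 and 24.3 in SH-SY5Y, 55.8, 47.1 and 53.97 in BE(2)-C and 22.1, 12.9 and 19.4 in NGP. DTX3L, a ubiquitin ligase, and PARP9, its partner, averaged 1110 ± 21.2 and 680.3 ± 9.74 in SK-N-AS (SD, n = 3). These 3 genes are neighbours on chromosome 3, and their differences were 5.67 (SE 0.14), 4.73 (SE 0.10) and 4.57 (SE 0.11). DTX3L also varied among the others, with 78.8 ± 4.66 in SH-SY5Y and 87.2 ± 7.93 in BE(2)-C against 20.5 ± 4.44 in NGP and 19.9 ± 3.65 in KELLY. SP110, a nuclear body protein, and TRIM21, a receptor for antibodies inside the cell, differed by 3.41 (SE 0.087) and 2.46 (SE 0.10). TRIM25, which attaches ubiquitin to the RNA sensor RIG-I, averaged 1703 ± 62.04 in SK-N-AS, 343 ± 16.02 in KELLY, 219 ± 3.03 in SH-SY5Y, 818 ± 32.95 in BE(2)-C and 142 ± 13.99 in NGP. It was above the median of all values in every line, and on centred arrays it was lower in NGP than in every other line, against 0.778% of all genes. The other probe set of TRIM25 averaged 102 in SK-N-AS, 48.6 in KELLY, 38.2 in SH-SY5Y, 83.5 in BE(2)-C and 54.9 in NGP, so that NGP was not the lowest line on it. The call of TRIM25 against every other line in SK-N-AS was lost when its probe sets were averaged, and those of TRIM25 and DTX3L were lost without _s_at and _x_at probe sets. TRIM22, an antiviral ligase, departed most from the group and read 68.5, 84.3 and 86.5 in SK-N-AS, 51.9, 49.2 and 51.1 in KELLY, 42.1, 42.7 and 42.7 in SH-SY5Y, 65.4, 69.5 and 85.7 in BE(2)-C and 51.4, 45.8 and 59.1 in NGP. Its arrays overlapped between SK-N-AS and BE(2)-C, and SK-N-AS minus BE(2)-C was 0.12 (95% interval -0.14 to 0.38, adjusted p = 0.443).

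**Figure D3:**
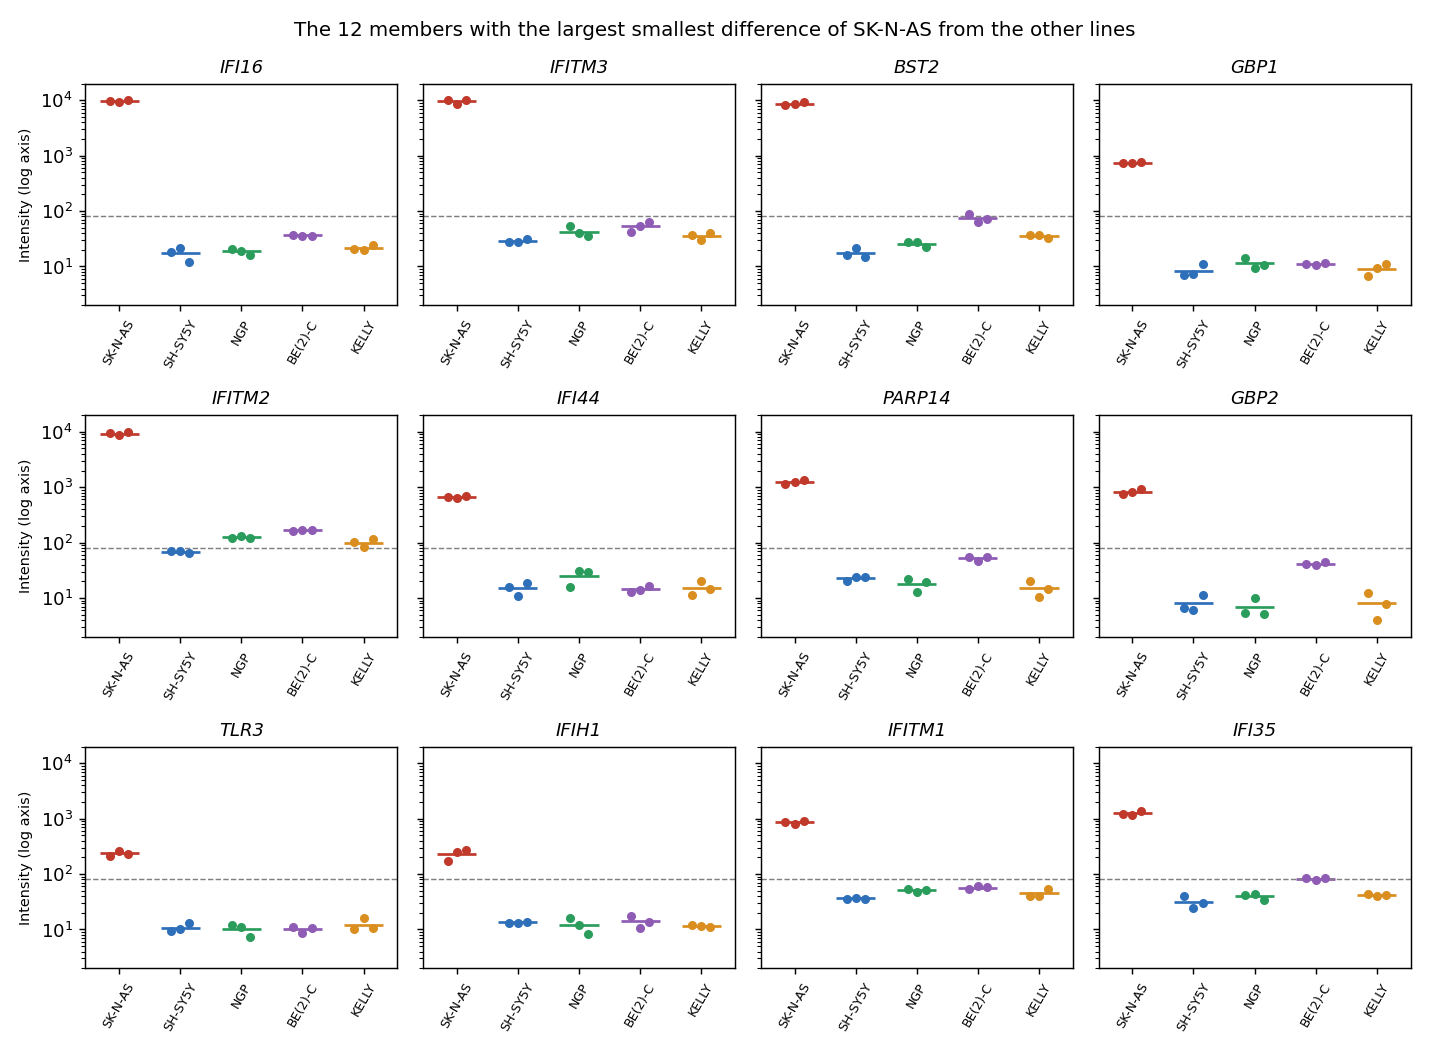
Intensity on a log axis of the 12 members with the largest smallest difference of SK-N-AS from any other line, with 1 point per array, a bar at the mean of each line and a dashed line at the median of all values (80.6). In each panel the 3 SK-N-AS arrays lie above the 12 others.

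Of 8 groups of members that lie side by side in the genome, 3 were called higher in SK-N-AS throughout, 3 in part and 2 not at all. Neighbours were members at most 3 places apart among the measured genes of a chromosome. All 3 IFITM genes, both GBP genes and all of PARP9, DTX3L and PARP14 were called higher in SK-N-AS than in every other line. In the IFIT row 3 of 4 were, with IFIT5 apart, and of HERC5 and HERC6 and of IFI44 and IFI44L 1 of 2 each. Of the OAS row and of the MX pair, 0 were. For IFI44L the outcome rests on the probe set used, and another of its probe sets reached the median of all values in SK-N-AS. On centred arrays IFIT1 and HERC5 lost the call too, which left 2 of 4 in the IFIT row and 0 of 2 in the HERC pair.

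Calls among SH-SY5Y, NGP, BE(2)-C and KELLY were no more frequent in the set than over all genes, but many members were too dim there to be called. At least 1 of the 6 comparisons of these lines was called for 20 of 46 members, against 50.9% of all genes, and on centred arrays for 11, against 27.6%. On the deposited scale, 18 members reached the median of all values in SK-N-AS only (4.59% of all genes) and 6 in no line (30%). None of these could be called here, so the counts do not compare how often the lines differ. IFIT2, as 1 case, was not called with NGP minus BE(2)-C at -2.31 (SE 0.14). SH-SY5Y was called higher than NGP in 2 members (2.63% of all genes) and lower in 3 (12.7%), higher than BE(2)-C in 2 (1.57%) and lower in 15 (36.7%), and higher than KELLY in 2 (3.4%) and lower in 2 (6.8%). NGP was called higher than BE(2)-C in 2 (3.56%) and lower in 8 (18.3%), and higher than KELLY in 2 (7.98%) and lower in 1 (2.88%). BE(2)-C was called higher than KELLY in 7 (27.2%) and lower in 1 (2.19%). Each of these shares is near the background or under it, apart from counts of 1 or 2 genes. On the probe sets used, no member was called in 1 direction against all others in SH-SY5Y, NGP or KELLY, as 5.96% of all genes were. The 11 genes called on centred arrays were UBE2L6, HERC5, USP18, IFIT5, OAS1, OAS3, ISG20, SAMHD1, XAF1, TRIM25 and DTX3L. OAS3 spanned the widest range, with NGP minus BE(2)-C at -5.88 (SE 0.13, adjusted p = 2.17e-23) on the deposited scale and -5.27 on centred arrays.

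**Figure D4:**
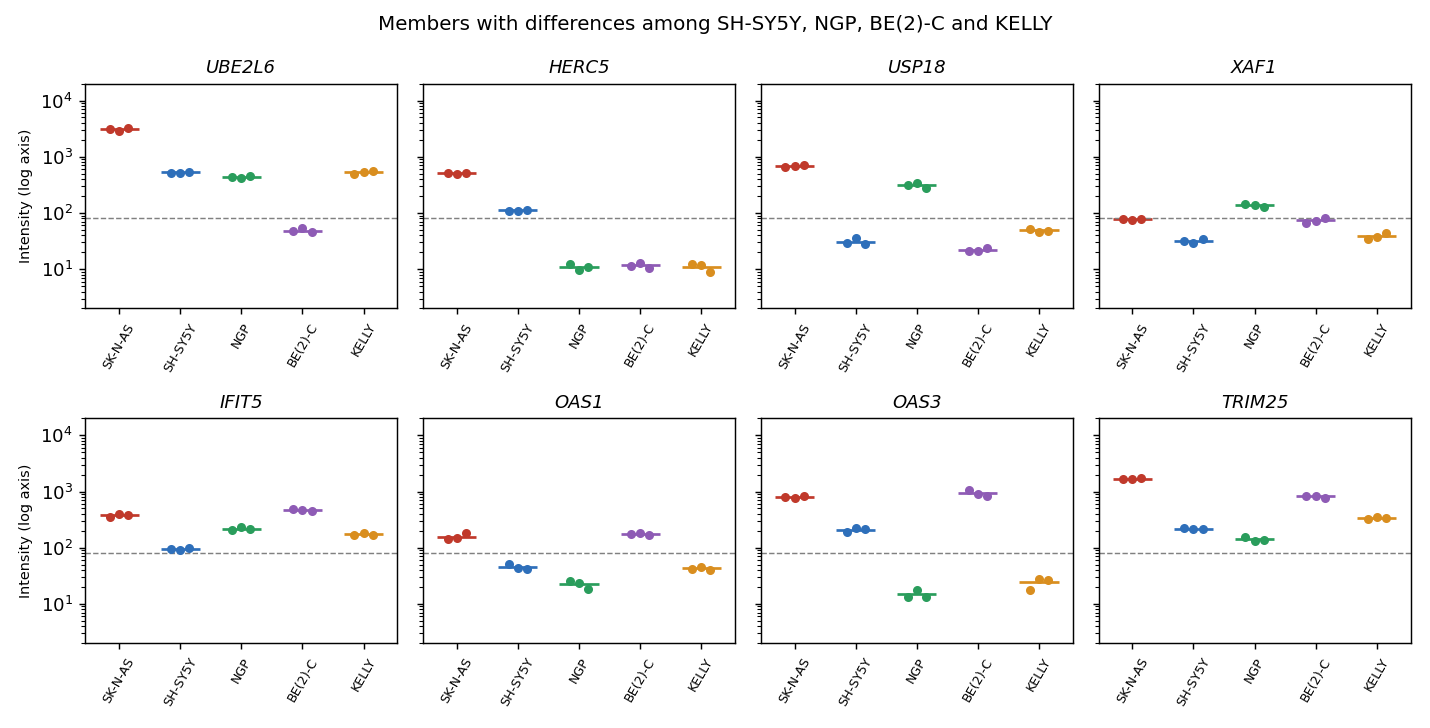
Intensity on a log axis of 8 members that differed among SH-SY5Y, NGP, BE(2)-C and KELLY, with 1 point per array, a bar at the mean of each line and a dashed line at the median of all values (80.6). UBE2L6 is low in BE(2)-C alone, HERC5 is above the dashed line in SK-N-AS and SH-SY5Y, USP18 in SK-N-AS and NGP, and OAS1 in SK-N-AS and BE(2)-C.

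Set against the median of all values, the members were mostly above it in SK-N-AS and mostly below it elsewhere. A line mean reached the median for 39 of 46 members in SK-N-AS (63.9% of all genes), 17 in BE(2)-C (61.4%), 11 in KELLY (54%), 14 in NGP (56.5%) and 10 in SH-SY5Y (50.2%). In SK-N-AS only, 18 members reached it, against 4.59% of all genes, namely IFITM1, IFITM3, BST2, IFIT2, IFIT3, OASL, GBP1, GBP2, IFI44, IFIH1, TLR3, STING1, IFI16, IRF1, TRIM21, SP110, PARP9 and PARP14. All 5 lines reached it for 7 members (44.5% of all genes), which were IFIT5, EIF2AK2, ADAR, SAMHD1, IFI6, IRF7 and TRIM25. No line reached it for 6 (30% of all genes), which were HERC6, MX1, MX2, IFI44L, CGAS and TRIM22. Another probe set of IFI44L did reach it in SK-N-AS, with a mean of 91.65. Close to the threshold, ISG20 in KELLY (81.2 ± 0.968) and OAS2 in NGP (82.6 ± 16.3) were counted as above, and MX1 (80.6 ± 9.29) and TRIM22 (79.8 ± 9.81) in SK-N-AS as below by their mean log2 values (SD, n = 3 each).

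**Figure D5:**
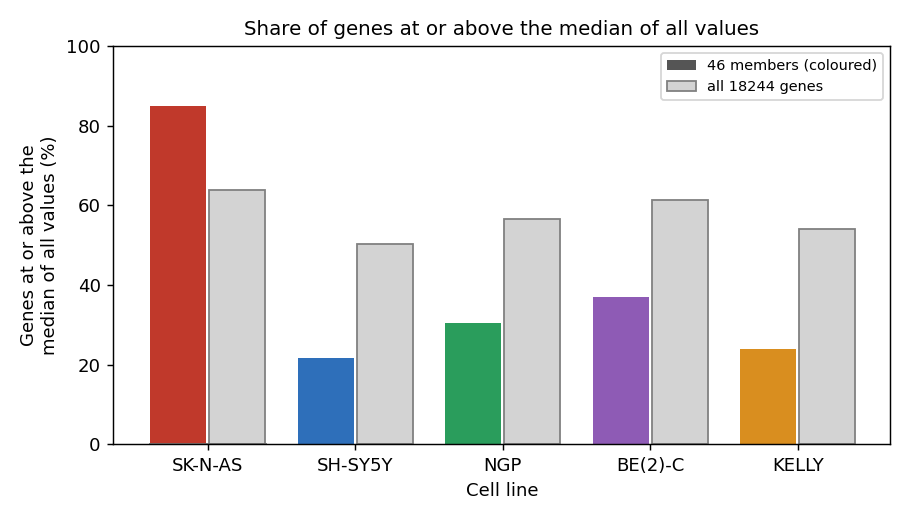
Share of the 46 members (coloured bars) and of all 18244 genes (grey bars) whose line mean reached the median of all values, in percent, for each line. The members stand at 84.8% in SK-N-AS and between 21.7% and 37% in the other lines, while all genes stand between 50.2% and 63.9%.

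The rest of the interferon pathway was followed through 101 further genes with a probe set. Of these, 41 were called higher in SK-N-AS than in every other line and 0 lower, and 25 and 0 on centred arrays, against the 9.02% and 4.02% of all genes given above. The interferons themselves were dim. All 7 measured ligand genes stayed below the median of all values in every line, with IFNB1 at 30.7 ± 2.17 in SK-N-AS and 20.2 ± 6.17 to 25.5 ± 5.29 in the others and IFNG at 21.8 ± 4.45 to 26.1 ± 8.39 (SD, n = 3 each). IFNA1, IFNL2 and IFNL3 are not analysed here.

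Of 6 receptor genes, 4 were called higher in SK-N-AS than in every other line, namely IFNAR2, IFNGR2, IFNLR1 and IL10RB, and only IL10RB on centred arrays. IFNAR2, a chain of the type I receptor, averaged 496 ± 10.4 in SK-N-AS, 71.7 ± 7.92 in KELLY, 104 ± 5.49 in SH-SY5Y, 177 ± 12.9 in BE(2)-C and 105 ± 9.85 in NGP (SD, n = 3 each). IFNAR1, the other chain, averaged 629 ± 54.7 in SK-N-AS and 643 ± 39.1 in BE(2)-C, and from 165 ± 17.7 to 236 ± 12.2 in the other lines. Of the 4 measured kinases and STATs, JAK1 and JAK2 were called on the deposited scale and neither on centred arrays. JAK1 averaged 2764 ± 81.8 in SK-N-AS, 528 ± 13.8 in KELLY, 739 ± 54.8 in SH-SY5Y, 932 ± 89.01 in BE(2)-C and 627 ± 7.93 in NGP. TYK2 averaged 753 ± 75.01 in SK-N-AS and 719 ± 37.2 in BE(2)-C, and 238 ± 29.9 to 299.7 ± 30 elsewhere.

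Of 20 sensing adaptors and kinases, 6 were called higher in SK-N-AS than in every other line (RIGI, DHX58, TICAM1, IKBKE, AIM2 and NLRC5), 3 of them on centred arrays (AIM2, DHX58 and NLRC5). AIM2, a DNA sensor of the inflammasome and a relative of IFI16, averaged 2070 ± 61.2 in SK-N-AS and at most 20.4 ± 3.005 elsewhere, a difference of 6.92 (SE 0.11) (limma, adjusted p = 4.15e-27). RIGI, the cytoplasmic sensor of RNA ends, averaged 208 ± 18.2 in SK-N-AS and 27.4 ± 2.40 to 40.6 ± 4.17 elsewhere. DHX58 (LGP2) and NLRC5, a regulator of antigen presentation genes, differed by 2.90 (SE 0.12) and 2.85 (SE 0.09). MAVS, TBK1 and IRF3, which relay the signal of the sensors, reached the median of all values in at least 4 of the 5 lines. MAVS averaged 408 ± 22.5 in SK-N-AS but 614 ± 14.4 in BE(2)-C, TBK1 1515 ± 185 and 1069 ± 65.8, and IRF3 288 ± 34.5 and 146 ± 9.82, and none of these 3 was called against every other line.

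Of 11 NF-kappaB genes, 8 were called higher in SK-N-AS than in every other line and 4 on centred arrays, with NFKBIA, TNFAIP3 and NFKB1 showing the largest differences at 3.37 (SE 0.067), 3.85 (SE 0.13) and 2.96 (SE 0.067). Of 10 feedback inhibitors, SOCS3 and IRF2 were called on both scales, with 3.60 (SE 0.11) and 3.31 (SE 0.091). Of 43 further interferon-stimulated genes, 19 were called on the deposited scale and 15 on centred arrays. The largest differences were those of NMI, APOBEC3B and SP100, with 5.94 (SE 0.12), 5.74 (SE 0.084) and 5.65 (SE 0.12). NMI averaged 2071 ± 165 in SK-N-AS, 199 ± 5.51 in BE(2)-C and at most 21.7 ± 3.78 in the other lines. APOBEC3B, a cytidine deaminase, averaged 1813 ± 70.99 in SK-N-AS and at most 84.5 ± 5.01 elsewhere, and SP100, a nuclear body protein, 864 ± 23.8 and at most 21.2 ± 1.74. Of the 43, 11 stayed below the median of all values in all 5 lines, against 30% of all genes, and so could not be called. They were CXCL9, CXCL10, CXCL11, CCL5, IDO1, RSAD2, GBP5, EPSTI1, SLFN11, TRIM34 and BATF2, with CXCL10 at 44.4 ± 9.46 and RSAD2 at 39.4 ± 3.01 in SK-N-AS (SD, n = 3).

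Marker genes of neuroblasts and of other cell types were read in the same way, against the 9.02% of all genes called higher and the 1.36% called lower in SK-N-AS than in every other line. Of 9 measured neuroblast markers, all reached the median of all values in each of the other 4 lines and 6 in SK-N-AS, where 6 were called lower than in every other line. SK-N-AS averaged 53.3 ± 8.22 for CHGA, 28.5 ± 4.63 for STMN2 and 57.6 ± 12.5 for GAP43, where the lowest of the other lines had 5858 ± 491, 6944 ± 371 and 896 ± 32.1. HAND2 averaged 11580 ± 772 in SK-N-AS and was not called lower there, nor were GATA3 and TH. On the deposited scale TH read 199 to 249 in SK-N-AS, above SH-SY5Y (77.8 to 109) and NGP (107 to 136) and below BE(2)-C and KELLY. Centring lowers a difference of SK-N-AS from SH-SY5Y by 1.35 and from NGP by 0.82 on the log2 scale. TH against these single lines on centred arrays is not given here. The sum of the 9 was 13710 to 15400 per array in SK-N-AS and 29760 to 60080 in the other lines. HAND2 was the largest part of it in SK-N-AS, at 10805 to 12348. Of 14 leukocyte markers, 1 was called higher in SK-N-AS, PTPRC with 351 ± 25.7 against at most 15.5 ± 2.43, while CD3E, CD3D, CD2, MS4A1, ITGAM, CD14, AIF1, CLEC4C and IL3RA were below the median of all values in every line. Their sum was 1100 to 1169 in SK-N-AS and 424.8 to 725.5 elsewhere. Of 8 fibroblast markers, COL1A1, COL3A1 and LUM were called higher in SK-N-AS, with COL3A1 at 17530 ± 739. The sum was 23890 to 25350 there, of which COL3A1 was the largest part, and 430.9 to 4295 elsewhere. THY1 and PDGFRB went the other way, with 1951 to 2034 and 656 to 743 in BE(2)-C against 623 to 712 and 411 to 452 in SK-N-AS. DCN was not called against every other line, and COL1A2 and FAP were below the median in every line. Of 6 epithelial markers, KRT8, KRT18 and CLDN4 were called higher in SK-N-AS, with KRT18 at 9534 ± 332. KRT19 went the other way, with 340 to 391 in BE(2)-C against 94.4 to 117 in SK-N-AS. EPCAM and CDH1 were below the median in every line, and EPCAM was lowest in SK-N-AS. The sum was 12930 to 14180 in SK-N-AS, of which KRT18 was the largest part, and 234.6 to 703.3 elsewhere. Of 6 endothelial markers, 0 were called higher in SK-N-AS, CDH5 averaged 231 ± 7.20 in BE(2)-C and 42.5 ± 5.69 in SK-N-AS, and the sum was 374.9 to 445.5 in SK-N-AS and 189.7 to 575.6 elsewhere. The part of these markers in the levels of the interferon-stimulated genes was not tested.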

How the data were processed

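Total RNA of 5 cell lines was measured on 15 arrays. Per the labels' protocols, cells were counted, ERCC spike-in RNA was added at lysis, and RNA was labelled by in vitro transcription from its 3′ end. The authors' deposited values are linear intensity values per probe set. They come from MAS5, per the submitters' processing notes. Its version, scaling and background correction are not stated in what was used here. Whether the spike-ins were used for scaling is not known. Precision is limited by 3 arrays per line.

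Of 49494 probe sets, 45277 named 1 gene, 1333 several, 2682 none and 202 were controls (100 for ERCC). Genes were named from the platform annotation, and 18201 of 18244 symbols were found in RefSeq. Values were transformed as log2(intensity + 1). In R 4.3.3, limma 3.58.1 with a mean per line and an intensity trend was fitted to all 18244 genes on all arrays, with no prior filter and with Benjamini-Hochberg adjustment over all genes within each of 10 comparisons. Dim values lie near background, where a fold is understated. A gene marks a line when it was called in 1 direction against every other line. The members, the lists and the named genes were chosen with earlier results of these data known. Every array is given for the 12 members with the largest smallest difference of SK-N-AS, for members marking another line or the MYCN classes, and for members departing from their family; USP18, MX1 and GBP2's BE(2)-C values and the 8 genes plotted among the other lines were singled out after their values were seen. Of the wider lists, up to 3 called genes per list and some core genes are named; lists of called or dim genes beyond these were named after their values were seen. Alternatives covered the scale, pseudocount, floor, filter, probe set choice, variance trend, replicate block, single arrays left out, threshold and promoter window; the probe set with the highest mean log2 value was added after seeing the data.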

Additional observations from a re-analysis of the deposited data

How the results depend on the processing

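The 31 members called higher in SK-N-AS than in every other line numbered 30 to 33 with any 1 array left out (8.63% to 9.31% of all genes). They numbered 30 to 32 with equal ERCC medians, a pseudocount of 16, a floor at the 25th percentile, a filter on low values, no variance trend, averaged probe sets or the probe set with the highest mean log2 value (7.82% to 12.9% of the genes tested). With quantile normalization they were 25 (4% of all genes). Replicate numbers did not pair the arrays, since the correlation of deviations of same-numbered arrays ran from -0.22 to 0.23 (30 pairs), and the fit with the replicate block called the same 31. Leaving out SH-SY5Y replicate 1 or NGP replicate 2 added SAMHD1, lower in SH-SY5Y, to UBE2L6, so that the members marking another line numbered 1 to 2 over single arrays left out.

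On centred arrays the called members were 4 for SH-SY5Y and BE(2)-C (11.2% of all genes), 6 for NGP and BE(2)-C (13.1%) and 3 for BE(2)-C and KELLY (11.9%). These are near the shares of all genes or under them. On that scale 3 members marked a line other than SK-N-AS, and the share of all genes for that count is not given here. With quantile normalization these counts were 5, 6, 3 and 3, and their shares of all genes are not given here. The difference of SK-N-AS from the mean of the others changed sign for 6 members, to -0.0010 and -0.027 for IFIT5, -0.51 and -0.28 for OAS2, -0.17 and -0.20 for ADAR, -0.50 and -0.19 for XAF1, -0.59 and -0.016 for CGAS and -0.32 and -0.040 for TRIM22 (centred, then quantile). These 6 had the smallest differences on the deposited scale, and the alternatives shift all genes by construction.

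Without _s_at and _x_at probe sets, which leaves 35 members, the calls were 23 for SK-N-AS and NGP, 18 for SK-N-AS and BE(2)-C, 3 for SH-SY5Y and NGP, 5 for NGP and BE(2)-C, 1 for NGP and KELLY and 4 for BE(2)-C and KELLY. The shares of all genes for these pair counts are not given here. Of the 35, 18 marked SK-N-AS (8.82% of the 16772 genes still measured), 0 marked another line and 8 were above the median in NGP. For the marks of other lines and for NGP the shares of all genes are not given here. OAS2 and CGAS changed sign to -0.17 and -0.23. With all probe sets of a gene averaged, 2 members were called between SH-SY5Y and KELLY. With the 40th percentile as threshold 27 members were above it in BE(2)-C. With the 60th, 11 were in BE(2)-C, 9 in NGP, 5 in SH-SY5Y and 7 in KELLY. The shares of all genes for these counts are not given here, and a changed threshold moves the share of all genes too. In the 150 bases nearest the start, 19 of the 35 genes with a window (54.3%) held the ISRE core, against 2.19% of all genes with a window. The GAS letters were there in 7 (20%), against 4.29%. CGAS fell short of the threshold with the replicate block and in 8 of the 15 fits with an array left out, and OAS2 in 1.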
